A study of Mus musculus with 2 samples.

Results

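HoxBlinc, a long noncoding RNA of the HoxB cluster, was targeted by inducible short hairpins in mouse embryonic stem cells, which were grown as embryoid bodies and sequenced as total RNA at day 6. The proteasome genes were taken as all genes whose symbol begins with Psm, a letter from a to g and a digit, which gave 49 of the 20207 genes listed. They comprised 19 core genes (Psma and Psmb), 21 genes named for the regulatory particle (Psmc and Psmd), 4 activator genes (Psme), 1 inhibitor gene (Psmf1) and 4 assembly genes (Psmg). The rule uses names alone and also takes Psmc3ip, whose product acts in meiotic recombination and is not part of the proteasome. In 1 library doxycycline (2 ug/ml) had been added at day 2 to induce the hairpins, the other had no doxycycline, and in each the RNA of 2 separate hairpins was pooled, so both groups carried them. The growth protocol names the stem cell lines R1/E and CGR8 MHC-GFP without saying which gave each library, and the stem cells had been kept on irradiated mouse embryonic fibroblasts.

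The proteasome degrades proteins that carry ubiquitin chains. Its core particle is a barrel of an outer and an inner kind of ring, the alpha rings that gate the channel and the beta rings that hold the proteolytic sites. A regulatory particle caps the barrel, with a base of ATPases that unfold the substrate and a lid that removes ubiquitin. Under interferon, and constitutively in many blood and immune cells, the catalytic beta subunits are replaced by inducible ones, giving the immunoproteasome, which favours peptides for display on MHC class I. Embryonic stem cells and early embryos need high proteasome capacity, and the activator Psme4 is best known for its role in spermatogenesis and chromatin.

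Gene counts summed to 24924921 with and 37046449 without doxycycline. Each group had 1 library, so nothing was tested against replicates and all statements compare these libraries, not the conditions. Differences are given as the fold of CPM (counts scaled to a common library total), with over without doxycycline, with an exact conditional 95% interval that covers counting error only. Levels are given as RPKM, the authors' value per transcript length and library size. The RPKM scale sets every fold lower by a common factor of 1.12: over all measured genes the log2 ratio had a median of -0.03 in CPM, -0.18 in RPKM and -0.43 in the authors' RMS-normalized RPKM. Of the 24 members with a higher CPM in the doxycycline library, 17 also had a higher RPKM and 7 did not, while 0 of those with a lower CPM had a higher RPKM. The HoxBlinc RNA itself was not analysed here. The 3 pluripotency markers summed to 79.1 RPKM with and 107.6 RPKM without doxycycline, the 3 endoderm markers to 3.80 with and 14.6 RPKM without it, and the 5 fibroblast markers to 4.24 with and 15.4 RPKM without it. The mesoderm and endothelium markers lay on both sides: T (brachyury) had 4.79 RPKM with and 0.909 RPKM without doxycycline, while Kdr had 0.258 with and 4.11 RPKM without, Tie1 0.0558 with and 1.38 RPKM without, Cdh5 0.0380 with and 0.667 RPKM without, and Pecam1 1.01 with and 2.95 RPKM without doxycycline. The part of these cell types in the proteasome differences was not tested. In bulk RNA, fewer cells of a type and less RNA per cell cannot be told apart.

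Nearly all proteasome genes were well expressed, and as a group they lay where the transcriptome lay, while the parts of the complex had different medians. Of the 49 genes, 47 were measured, meaning that the higher library reached 1 RPKM and both tables had the same gene model. The median log2 ratio of (CPM + 0.5) was 0.02 over the 47, against -0.03 over all 10964 measured genes. Of the 47, 6 (12.8%) were at least 25% higher with doxycycline, as were 10.1% of all measured genes, and 5 (10.6%) were at least 20% lower, as were 16.6% of all measured genes. The share higher was near the background. These counts depend on the scale: 3 were higher and 14 lower by these limits in RPKM, 1 and 25 in RMS-normalized RPKM, and 2 were lower relative to genes of the same GC content. The median of all measured genes was itself -0.18 in RPKM and -0.43 in RMS-normalized RPKM, so these scales set all genes lower. The share of all genes past the limits was not computed on these scales or relative to GC content. Only Psmb8 was at least 2-fold higher (0.465% of all measured genes) and 0 were at least 2-fold lower (2.65% of all measured genes). Psmb8 passed the 1 RPKM limit only through the doxycycline library, and in RPKM with a pseudocount of 0.5 it was not past 2-fold (0.96 on the log2 scale). In CPM the 6 higher genes were Psmb8, Psme1, Psme4, Psmb10, Psmb9 and Psma1, and the 5 lower ones Psmc5, Psmc3, Psmd7, Psmd3 and Psmg1. Psma1 lay just past the limit at 0.33 on the log2 scale, and Psma6 just short of it at 0.31. Counting intervals excluded 1 for 36 of the 47 (76.6%), as they did for 65.3% of all measured genes. Most genes thus differed between these libraries by more than the counting error of the deposited counts. With all counts halved, the intervals excluded 1 for 32 members. The share of all measured genes was not computed with halved counts, so this count has no background beside it.

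**Figure D1:**
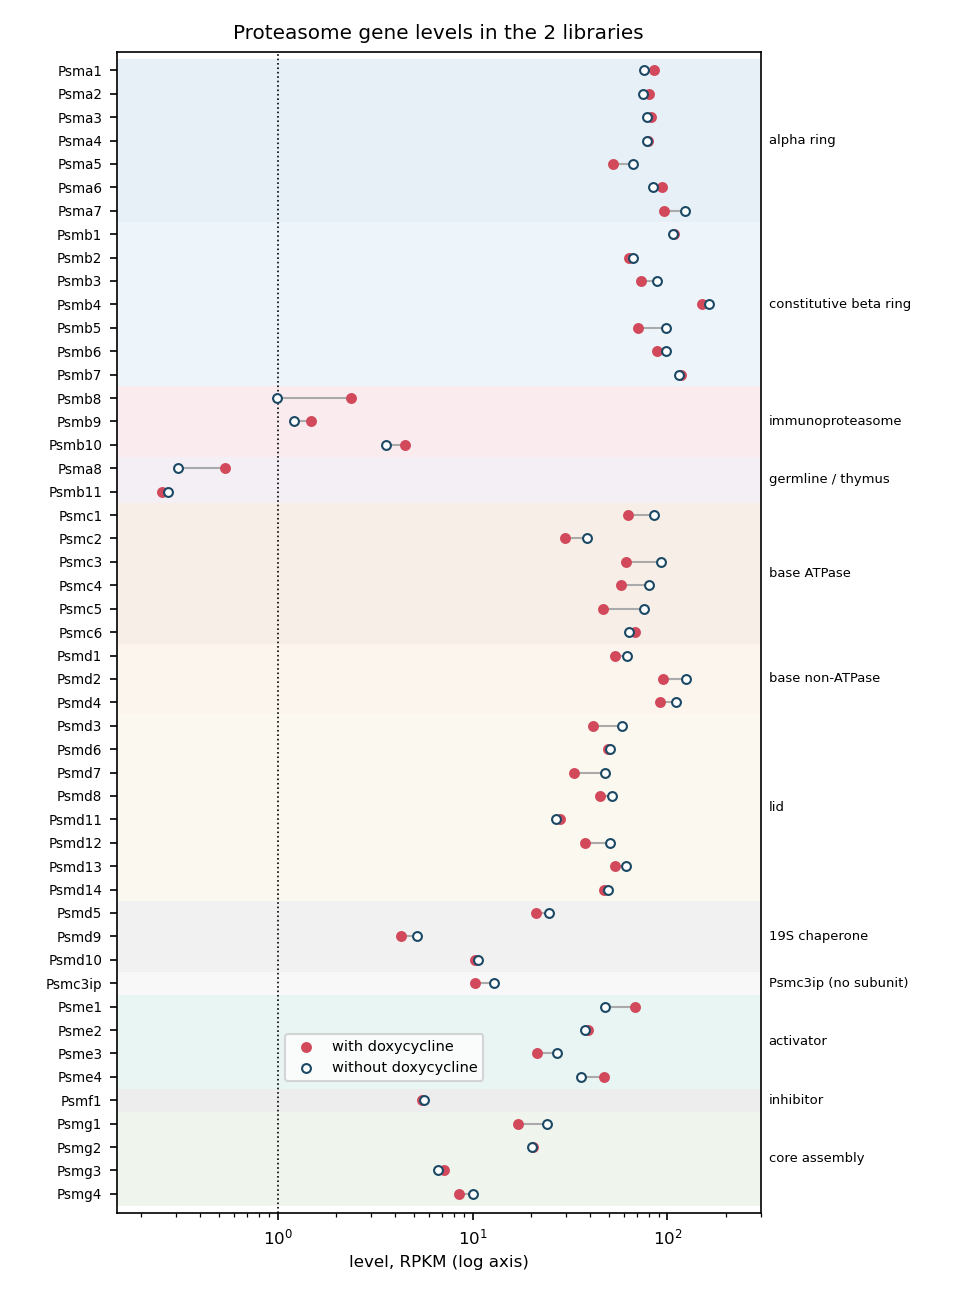
Level of each of the 49 genes in RPKM (log axis) in the library with doxycycline (filled) and without it (open), grouped by the part of the complex; the dotted line marks 1 RPKM. Core and base genes sit between 29.8 and 164.2 RPKM, while the immunoproteasome genes stay at or below 4.50 RPKM and Psma8 and Psmb11 below 1.

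The medians of core particle and regulatory particle genes lay on opposite sides of that of all measured genes. The 17 measured core genes had a median log2 ratio of 0.18 and the 21 regulatory genes one of -0.11, a difference of 0.29. RPKM and RMS-normalized RPKM also gave 0.29, but they shift all genes nearly alike and so could hardly change the difference. It was 0.245 with a limit of 5 RPKM and 0.252 relative to genes of the same GC content. The core median itself was 0.02 in RPKM and -0.22 in RMS-normalized RPKM, in both above that of all genes. Without the inducible and tissue-restricted genes, the 14 genes of the alpha ring and the constitutive beta ring had a median of 0.14, and the 17 genes of base and lid one of -0.20. Both medians lay within the 25th to the 75th percentile of all measured genes (-0.22 to 0.15). The lid median alone was -0.03, like that of all measured genes, while that of the base ATPases was -0.30. Of the 14 standard core genes 10 were above 0 and 4 below, and of the 17 base and lid genes 4 were above and 13 below. Of all 10964 measured genes, 4980 were above 0 and 5984 below. The summed counts of the 19 core genes were 2340 CPM with and 2190 CPM without doxycycline, a fold of 1.07 (1.06 to 1.08), but 0.944, the opposite direction, with summed RPKM. Those of the 20 regulatory genes without Psmc3ip were 3115 CPM with and 3467 CPM without doxycycline, a fold of 0.899 (0.891 to 0.907), and 0.802 with summed RPKM. The core fold was 1.19 times the regulatory fold (exact conditional interval 1.17 to 1.21, with and without halving all counts).

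**Figure D2:**
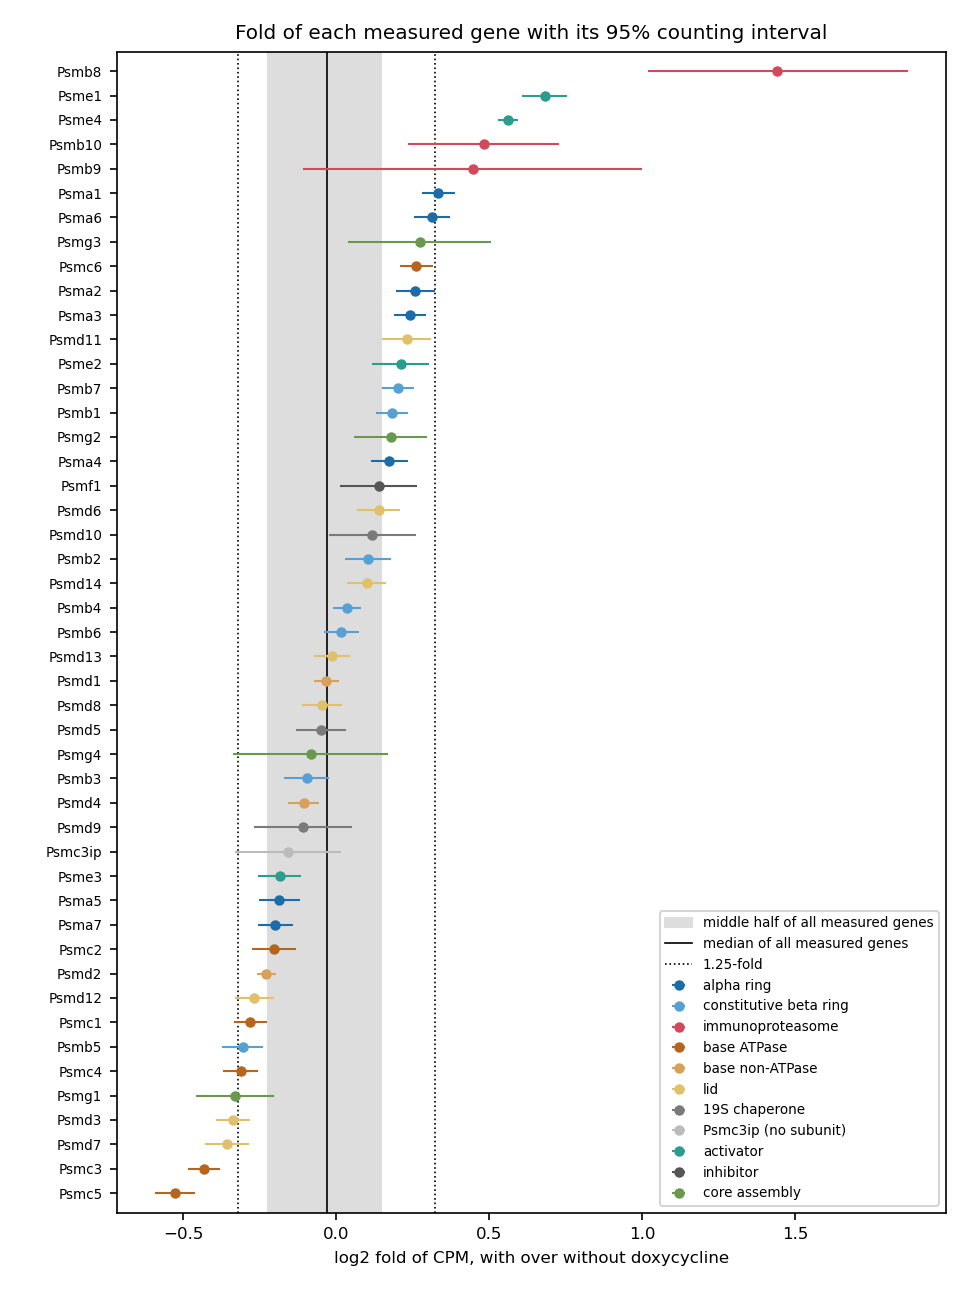
Log2 fold of CPM, with over without doxycycline, for the 47 measured genes, with exact 95% counting intervals. The grey band spans the 25th to the 75th percentile of all measured genes (-0.22 to 0.15), and Psmb8, Psme1 and Psme4 stand to its right while Psmc3 and Psmc5 stand furthest to its left.

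In the alpha ring, 5 of 7 genes were higher with doxycycline in CPM and in RPKM. Psma1 had 84.97 RPKM with and 75.6 RPKM without doxycycline, and its CPM was 1.26-fold higher (1.21 to 1.31). Psma6 had 93.5 RPKM with and 84.4 RPKM without doxycycline and was 1.24-fold higher in CPM (1.19 to 1.29). Psma2 had 80.0 RPKM with and 74.9 RPKM without doxycycline and was 1.20-fold higher in CPM (1.14 to 1.251). These genes encode structural subunits whose tails form the gate of the channel. Psma3 (82.3 RPKM with and 78.1 RPKM without doxycycline) was 1.18-fold higher and Psma4 (79.1 RPKM with and 78.6 RPKM without) 1.13-fold higher in CPM, and the end of the Psma4 model overlaps that of AY074887 (41 counts with and 25 without doxycycline). The other two ring genes were lower. Psma7 had 95.6 with and 122.9 RPKM without doxycycline and was 1.15-fold lower in CPM (1.10 to 1.19). Psma5 had 52.2 RPKM with and 66.6 RPKM without doxycycline and was 1.14-fold lower (1.09 to 1.19). The alpha genes together were 1.10-fold higher in CPM (1.09 to 1.12), while their summed RPKM was 567.7 with and 581.1 without doxycycline, the opposite direction.

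The constitutive beta ring had nearly the same total, at 1167 CPM with and 1133 CPM without doxycycline, a fold of 1.03 (1.01 to 1.05), or 0.913 with summed RPKM. Psmb7, which carries the trypsin-like site, had 117.2 with and 114.3 RPKM without doxycycline and was 1.15-fold higher in CPM (1.11 to 1.19). Psmb1, a non-catalytic subunit, had 108.6 RPKM with and 107.3 RPKM without doxycycline, 1.14-fold higher in CPM (1.09 to 1.18). Psmb2, also non-catalytic, was 1.08-fold higher in CPM (1.02 to 1.13) at 63.5 RPKM with and 66.1 RPKM without doxycycline. Its interval included 1 with halved counts (0.999 to 1.16). Psmb4 was the most abundant gene of the whole complex per length, at 150.2 with and 164.2 RPKM without doxycycline, and its CPM did not differ beyond counting error. Neither did that of Psmb6, the caspase-like subunit, at 88.5 RPKM with and 98.1 RPKM without doxycycline. Psmb3 was 1.07-fold lower (1.02 to 1.12), an interval that included 1 with halved counts (0.995 to 1.15). Psmb5, the chymotrypsin-like subunit and the main target of proteasome inhibitors, stood apart at 70.7 with and 97.98 RPKM without doxycycline. It was the only beta gene more than 1.2-fold lower, at 1.24-fold (1.18 to 1.29).

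The 3 inducible catalytic genes all had a higher CPM and RPKM with doxycycline, at low levels. Psmb8, which replaces Psmb5, had 2.39 RPKM (135 counts) with and 0.988 RPKM (74 counts) without doxycycline. Its CPM was 2.71-fold higher (2.03 to 3.65, and 1.80 to 4.19 with all counts halved). Psmb10, which replaces Psmb7, had 4.50 RPKM (264 counts) with and 3.61 RPKM (281 counts) without doxycycline and was 1.40-fold higher (1.18 to 1.66, and 1.10 to 1.79 with halved counts). Psmb9, which replaces Psmb6, had 1.48 RPKM (55 counts) with and 1.22 RPKM (60 counts) without doxycycline. Its fold of 1.36 was within counting error (0.928 to 2.00). Summed, the 3 genes were 1.63-fold higher (1.42 to 1.86), while the 3 constitutive catalytic genes had a fold of 1.00 (0.982 to 1.03), or 0.891 with summed RPKM. The immunoproteasome sum was 1.62-fold higher relative to the constitutive sum (1.41 to 1.86). It remained a small part: 2.94% of the summed RPKM of both sets with doxycycline and 1.84% without.

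Pair by pair, the ratio of folds was largest for Psmb8 over Psmb5. In CPM Psmb8 was higher and Psmb5 lower, which by itself makes such a ratio larger. In RPKM Psmb9 was likewise higher and Psmb6 lower. Psmb8 made up 3.27% of the summed RPKM of Psmb8 and Psmb5 with doxycycline and 0.998% without, and the ratio of the folds was 3.35 (2.49 to 4.53). Psmb10 made up 3.70% of its pair with Psmb7 with doxycycline and 3.06% without, with a ratio of 1.22 (1.02 to 1.45) that included 1 with all counts halved (0.949 to 1.57). Psmb9 made up 1.64% of its pair with Psmb6 with doxycycline and 1.22% without, and the ratio of 1.35 had an interval of 0.915 to 1.98. Without replicates it was not tested whether the pairs differ between conditions.

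**Figure D3:**
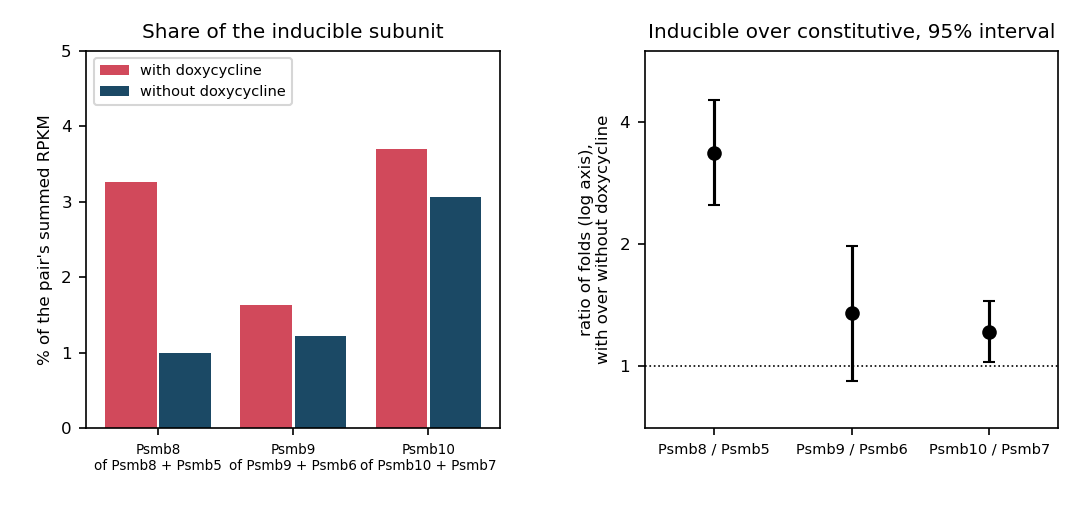
Left, the inducible subunit as a percentage of the summed RPKM of its pair, with doxycycline (left bar) and without it (right bar). Right, the fold of the inducible gene over the fold of its constitutive counterpart (log axis) with exact 95% counting intervals, which lie above 1 for Psmb8 and Psmb10 and include 1 for Psmb9.

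Psmb8 and Psmb9 lie 10.9 kb apart in the MHC class II region of chromosome 17 (Psmb9 at 34319044 to 34324275 and Psmb8 at 34335140 to 34338399, mm9 as in the authors' tables), interleaved with Tap1 and Tap2, the peptide transporter genes. Tap1, 970 bases from Psmb8, had 10.6 RPKM with and 11.3 RPKM without doxycycline, a fold of CPM of 1.06 (0.986 to 1.13). Tap2, 3025 bases away, had 2.60 RPKM with and 2.66 RPKM without doxycycline, a fold of 1.09 (0.940 to 1.27). Both intervals lie below that of Psmb8. Of the 11 genes of antigen processing and interferon response examined, 9 were measured, of which 3 were at least 25% higher (10.1% of all measured genes) and 1 at least 20% lower (16.6% of all measured genes). B2m, the light chain of MHC class I, had 87.8 RPKM with and 46.9 RPKM without doxycycline and was 2.10-fold higher (1.99 to 2.21). Erap1, a peptide-trimming protease, was 1.54-fold higher (1.37 to 1.73) and Irf1, an interferon-regulated transcription factor, 1.32-fold higher (1.21 to 1.45). H2-D1, an MHC class I heavy chain, was 1.38-fold lower (1.22 to 1.56). These genes were chosen from the list after their values were seen. The 5 blood and leukocyte markers found in the tables were at or below 0.0237 RPKM with and 0.313 RPKM without doxycycline. Their sum was 0.0463 with and 0.415 RPKM without doxycycline, with Cd3e at 0 counts with doxycycline.

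The upstream sequences of Psmb8 and Psmb5 are given since these paralogs lay on opposite sides. Each is the 250 bases before the gene start on the gene's own strand (RefSeq, GRCm38.p6, a later build than the tables). Capitals mark matches to TGACNNNGC, the core of the antioxidant response element bound by Nfe2l1 and Nfe2l2.
Psmb8 (chr17:34197945-34198194, plus strand): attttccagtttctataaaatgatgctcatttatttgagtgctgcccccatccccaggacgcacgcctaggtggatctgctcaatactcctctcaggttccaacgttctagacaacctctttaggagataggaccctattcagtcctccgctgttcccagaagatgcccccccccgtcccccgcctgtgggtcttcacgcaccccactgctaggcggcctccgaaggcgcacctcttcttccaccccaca
Psmb5 (chr14:54617996-54618245, minus strand): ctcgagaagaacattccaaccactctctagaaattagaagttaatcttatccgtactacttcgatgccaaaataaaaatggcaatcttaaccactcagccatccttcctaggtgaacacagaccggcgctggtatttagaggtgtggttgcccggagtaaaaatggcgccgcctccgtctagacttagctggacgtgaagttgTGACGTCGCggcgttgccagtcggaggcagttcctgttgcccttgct
TGACNNNGC, the interferon-stimulated response element core (GAAA, any 2 bases, GAAA) and CCAAT were searched on both strands. Psmb8 held 0 matches and Psmb5 held 1, TGACGTCGC, from 47 to 39 bases before the start. Across the 41 members with an upstream sequence, TGACNNNGC occurred in 5 (12.2%), against 11.5% of 27025 genes. The interferon element core occurred in 3 (7.32%, against 3.46% of all) and CCAAT in 15 (36.6%, against 37.5% of all). Matches are a description of the letters and not of binding.

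The base ATPases had the lowest median of the parts. Psmc genes encode the hexamer that pulls the substrate into the core, and 5 of the 6 ATPase genes were lower with doxycycline, with a median log2 ratio of -0.30. Psmc5 had 47.0 RPKM with and 75.9 RPKM without doxycycline, and its CPM was 1.44-fold lower (1.38 to 1.51), the lowest of all members. Psmc3 had 60.9 RPKM with and 92.1 RPKM without doxycycline and was 1.35-fold lower (1.30 to 1.40). Psmc4 had 57.5 RPKM with and 79.9 RPKM without doxycycline and was 1.24-fold lower (1.19 to 1.29). Psmc1 (62.8 RPKM with and 85.6 RPKM without doxycycline) and Psmc2 (29.8 RPKM with and 38.5 RPKM without doxycycline) were 1.21-fold and 1.15-fold lower. Psmc6 was the exception, with 68.3 RPKM in the doxycycline library and 63.8 RPKM in the other, and its CPM was 1.20-fold higher (1.15 to 1.245). The ATPases, which are present in equal numbers in the hexamer, were thus spread over a range from 29.8 to 68.3 RPKM with doxycycline and from 38.5 to 92.1 RPKM without. Together they were 1.18-fold lower in CPM (1.17 to 1.20).

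Psmc5 and Psmc6, the lowest and the highest ATPase gene by fold, are shown by the same 250 bases upstream.
Psmc5 (chr11:106255935-106256184, plus strand): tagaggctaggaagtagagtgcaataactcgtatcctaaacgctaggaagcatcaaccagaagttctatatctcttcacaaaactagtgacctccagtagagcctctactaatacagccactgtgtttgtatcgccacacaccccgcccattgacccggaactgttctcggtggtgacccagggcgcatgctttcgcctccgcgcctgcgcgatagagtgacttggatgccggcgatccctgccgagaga
Psmc6 (chr14:45329574-45329823, plus strand): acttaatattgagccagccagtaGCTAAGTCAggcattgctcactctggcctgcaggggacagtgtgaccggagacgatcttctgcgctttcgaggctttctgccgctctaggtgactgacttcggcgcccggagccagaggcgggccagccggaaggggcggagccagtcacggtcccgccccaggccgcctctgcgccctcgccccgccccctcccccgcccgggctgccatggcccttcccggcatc
The capitals in Psmc6 mark GCTAAGTCA, a match to TGACNNNGC on the minus strand from 227 to 219 bases before the start. Psmc5 held 0 matches to the 3 motifs.

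The non-ATPase subunits of the base were near or below the median of all genes. Psmd2, a large scaffold protein that binds ubiquitin-like domains, had 94.4 with and 124.1 RPKM without doxycycline and was 1.17-fold lower (1.15 to 1.20). Psmd4, a ubiquitin receptor, had 91.2 RPKM with and 110.1 RPKM without doxycycline and was 1.08-fold lower (1.04 to 1.11). Psmd1, the other scaffold, did not differ beyond counting error in CPM, at 53.9 RPKM with and 61.8 RPKM without doxycycline, and its model overlaps that of Htr2b (21 counts with and 43 without doxycycline). The 3 genes together were 1.11-fold lower (1.09 to 1.12).

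The 8 lid genes split, with 3 above and 5 below 0 and a median log2 ratio of -0.03. Psmd7 had 33.2 with and 47.6 RPKM without doxycycline and was 1.28-fold lower (1.22 to 1.34). Its protein pairs with that of Psmd14, the deubiquitinase, which had 47.3 RPKM with and 49.5 RPKM without doxycycline and was 1.07-fold higher in CPM (1.03 to 1.12), so the partners lay on opposite sides in CPM and both were lower in RPKM. Psmd3 had 41.3 RPKM with and 58.5 RPKM without doxycycline and was 1.26-fold lower (1.22 to 1.31), and Psmd12 had 37.8 RPKM with and 51.0 RPKM without doxycycline, 1.20-fold lower (1.15 to 1.26). All 3 encode structural lid subunits. Psmd11, whose product helps to hold the lid on the core, was the highest of the lid, at 28.1 RPKM with and 26.9 RPKM without doxycycline and a 1.17-fold higher CPM (1.11 to 1.24). Psmd6 was 1.10-fold higher in CPM (1.05 to 1.15). Psmd8 and Psmd13 were within counting error.

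The chaperones that assemble the base were also close to even. Psmd5 had 21.2 with and 24.6 RPKM without doxycycline, Psmd9 had 4.30 with and 5.20 RPKM without, and Psmd10 had 10.3 with and 10.7 RPKM without. All 3 had intervals that included 1. Psmc3ip, the meiotic gene taken in by its name, had 10.3 RPKM with and 12.9 RPKM without doxycycline and an interval of the fold lower of 0.988 to 1.26. Its gene model touches that of Mlx, and without strand information reads at that end cannot be assigned.

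Among measured members, the activator genes Psme1 and Psme4 had the highest CPM folds after Psmb8. Psme1 and Psme2 encode the subunits of the interferon-inducible ring that opens the core without ATP, Psme3 its nuclear relative, and Psme4 a large single-chain activator that acts on acetylated histones. Psme1 had 68.4 RPKM (3088 counts) with and 47.8 RPKM (2863 counts) without doxycycline and was 1.60-fold higher in CPM (1.52 to 1.69). Psme4 had 47.2 RPKM (14040 counts) with and 35.8 RPKM (14140 counts) without doxycycline and was 1.48-fold higher (1.44 to 1.51). Psme2 was 1.16-fold higher (1.08 to 1.24), at 39.1 RPKM with and 37.9 RPKM without doxycycline, and RefSeq lists a copy, Psme2b, whose reads the authors' counting may not separate. Psme3 lay on the other side, at 21.4 RPKM with and 27.3 RPKM without doxycycline and a 1.14-fold lower CPM (1.08 to 1.19). The activator genes together were 1.35-fold higher (1.33 to 1.38), and their median log2 ratio was 0.38 in CPM, 0.22 in RPKM and -0.01 in RMS-normalized RPKM, where all genes were at -0.43. In CPM and in RPKM Psme1, Psme2 and Psme4 were higher and Psme3 lower.

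Psme1 and Psme2, whose products assemble in 1 ring, lie 5.91 kb apart on chromosome 14 (Psme1 at 56197331 to 56200364 and Psme2 at 56206277 to 56209858, mm9). The fold of Psme1 was 1.39 times that of Psme2 (1.27 to 1.51). Psme1 made up 63.6% of their summed RPKM with doxycycline and 55.8% without. Fam158a, whose model overlaps the end of Psme1 by a few bases, had 104 with and 165 counts without doxycycline, a fold of 0.937 (0.726 to 1.20), where Psme1 had 3088 with and 2863 without. Rnf31, 769 bases from Psme2, had a fold of 1.09 (1.02 to 1.15).

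The inhibitor gene Psmf1 had 5.50 with and 5.60 RPKM without doxycycline. Its fold in CPM was 1.10 (1.01 to 1.20, and 0.972 to 1.24 with halved counts). Among the assembly factors, which build the alpha ring, Psmg1 had 17.0 RPKM with and 24.0 RPKM without doxycycline and was 1.26-fold lower (1.15 to 1.37). Psmg2, whose protein forms a dimer with that of Psmg1, had 20.4 RPKM with and 20.2 RPKM without doxycycline and was 1.13-fold higher in CPM (1.04 to 1.23). Psmg3 had 7.17 RPKM with and 6.65 RPKM without doxycycline and was 1.21-fold higher (1.03 to 1.42), an interval that included 1 with halved counts (0.959 to 1.52). Psmg4 had 8.52 RPKM with and 10.1 RPKM without doxycycline, within counting error. The assembly genes as a sum had a fold of 0.979 (0.928 to 1.03).

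Tissue-restricted members were nearly silent. Psma8, the germline relative of Psma7, had 0.537 RPKM (42 counts) with and 0.308 RPKM (32 counts) without doxycycline, a fold of 1.95 (1.20 to 3.19) whose interval included 1 with halved counts (0.970 to 4.00). Psmb11, the thymus-specific subunit, had 0.255 RPKM with and 0.274 RPKM without doxycycline, within counting error. Both were under the 1 RPKM limit and enter no count of measured members.

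**Figure D4:**
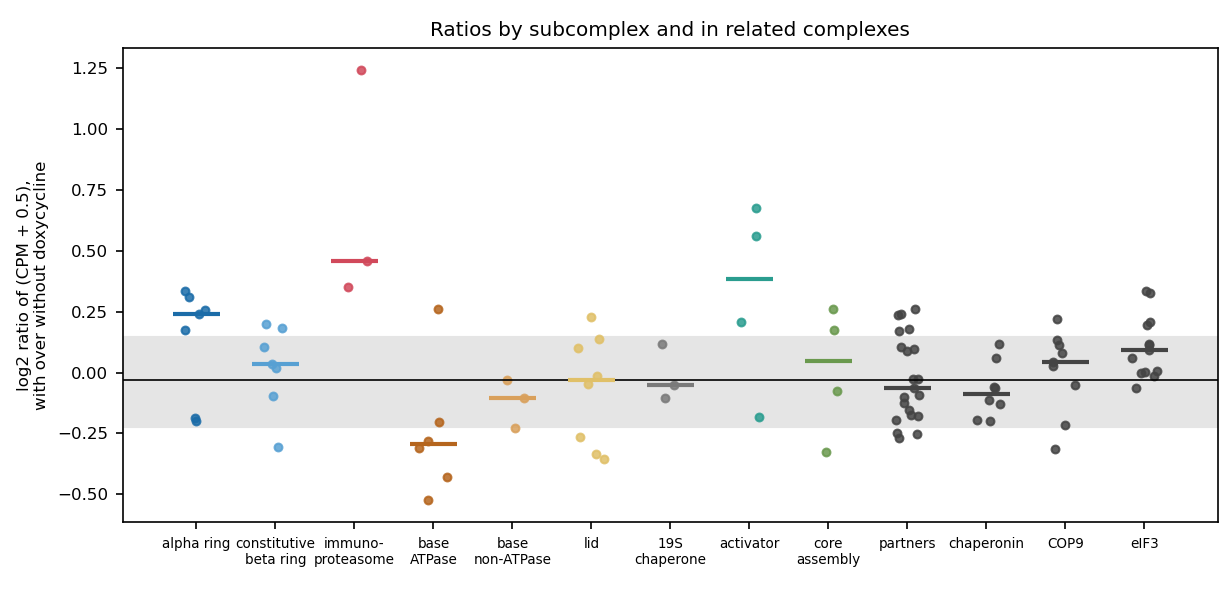
Log2 ratio of (CPM + 0.5), with over without doxycycline, for each measured gene (points) of the proteasome parts and of 4 further lists, with list medians as bars. The grey band spans the 25th to the 75th percentile of all measured genes, and the alpha ring median (0.24) and the base ATPase median (-0.30) lie above and below it.

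Partners of the proteasome that the rule did not take were also listed. Their middle 50% spanned 0.28 on the log2 scale, against 0.37 for all measured genes. The 25 names listed include second names of the same gene, such as Ecm29 for AI314180. Of these names, 21 were found and measured, 0 of them at least 25% higher or 20% lower, with a median log2 ratio of -0.06. Of all measured genes, 10.1% and 16.6% passed these limits. The extremes were AI314180 (the proteasome adaptor and scaffold also called Ecm29) at 1.20-fold higher (1.15 to 1.251) and Ubqln4, a shuttle for ubiquitinated proteins, at 1.20-fold lower (1.15 to 1.26). Adrm1, a further ubiquitin receptor of the base, was 1.13-fold lower (1.08 to 1.19), like 5 of the 6 ATPase genes. Shfm1, the smallest lid subunit, was 1.18-fold higher (1.12 to 1.2495), and Pomp, which matures the core, had a fold of 1.06 (1.01 to 1.13).

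Of all measured genes, 10.1% were at least 25% higher and 16.6% at least 20% lower. Of the 6 genes of ubiquitin and its activating enzymes, 2 were at least 25% higher and 0 at least 20% lower. These were Rps27a, a ribosomal fusion, at 1.27-fold (1.24 to 1.29), and the activating enzyme Uba6 at 1.26-fold (1.20 to 1.31). Of 15 regulators of proteasome gene transcription, 1 (6.67%) was at least 25% higher and 1 (6.67%) at least 20% lower. Both shares were below those of all measured genes (10.1% and 16.6%). Stat3 was 1.35-fold higher (1.29 to 1.42) and Maff 1.49-fold lower (1.28 to 1.75). Nfe2l1, the transcription factor that raises proteasome genes when the complex is inhibited, had 27.6 RPKM with and 25.9 RPKM without doxycycline, 1.21-fold higher in CPM (1.16 to 1.255). Ddi2, the protease that activates it, was 1.18-fold lower (1.11 to 1.26), and the deglycosylase Ngly1 did not differ beyond counting error.

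Other large complexes of fixed composition were set beside the proteasome to show the spread of its members. The middle 50% of the 47 proteasome genes spanned 0.41 on the log2 scale, against 0.37 for all measured genes and 0.33 for the 2682 with an RPKM of at least 20. The 47 also include inducible, activator, inhibitor and assembly genes and Psmc3ip. Closer in kind to the other complexes, the 14 standard core genes spanned 0.297 and the 17 base and lid genes 0.295. The chaperonin (8 genes) spanned 0.12, the COP9 signalosome (9 genes), a relative of the lid, 0.16, and the translation factor eIF3 (13 genes), another relative, 0.19. The median was -0.09 for the chaperonin, 0.04 for COP9 and 0.09 for eIF3. Of their genes, only Eif3e and Eif3f were at least 25% higher and 0 at least 20% lower. Of all measured genes, 10.1% and 16.6% passed these limits. Within the proteasome, the alpha ring spanned 0.29, the constitutive beta ring 0.18, the base ATPases 0.18 and the lid 0.39. The difference in spread was not tested.

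Base composition moved with the ratios, and its part in them was not tested beyond the values given here. Across the 9545 measured genes with a coding transcript in the GENCODE annotation, the ratio was lower at higher GC content (Spearman's rho -0.32, across genes within these libraries, which are not independent replicates). The median log2 ratio was 0.10 for genes of at most 42% GC and -0.23 above 58% GC. The rho over the 47 measured members was -0.25. Median GC was 45.0% for the alpha ring, 52.2% for the constitutive beta ring, 50.5% for the base ATPases and 48.8% for the lid. With each ratio taken relative to genes in the same GC bin, the alpha ring median was 0.14 and that of the base ATPases -0.27, against 0.24 and -0.30 without it. The standard core genes were then at 0.14 and the base and lid genes at -0.11, and the immunoproteasome genes, with a median of 55.8% GC, at 0.58. Psmb8, Psme1 and Psme4 were at 1.37, 0.80 and 0.51, and Psmc5 and Psmc3 at -0.47 and -0.31.

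**Figure D5:**
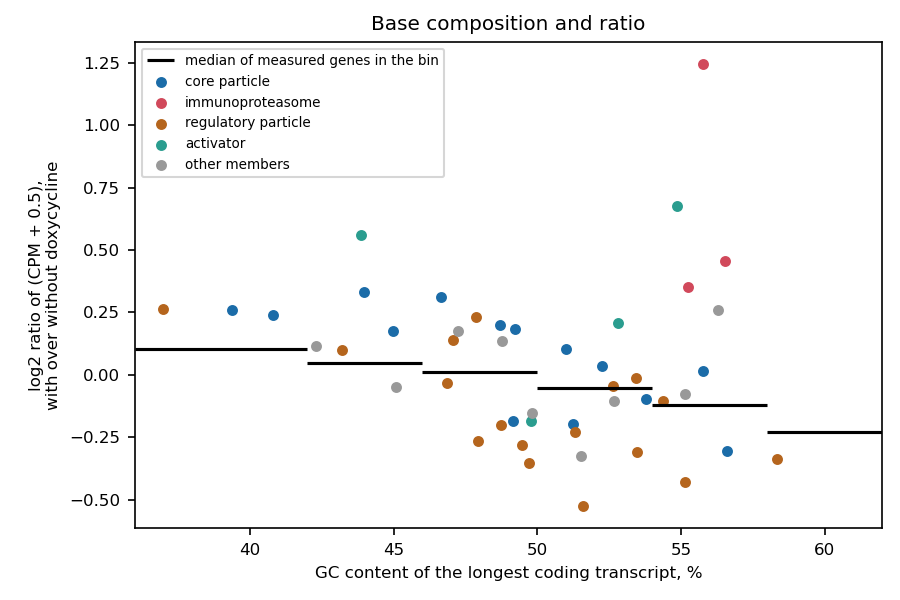
Log2 ratio of (CPM + 0.5), with over without doxycycline, against the GC content of the longest coding transcript for the 47 measured members (points, coloured by part). The black steps are medians of all measured genes in each of 6 GC bins and descend to the right, and the immunoproteasome and activator genes Psmb8, Psmb10 and Psme1 lie above them while Psmc5 lies furthest below.

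The 49 genes were spread over 16 chromosomes, with 9 on chromosome 11, 6 each on chromosomes 14 and 2, and 4 on chromosome 7. Beside the pairs given above, Psmb5 and Psmb11 lie 7.32 kb apart on chromosome 14. Psmb4 and Psmd4 lie 145.7 kb apart on chromosome 3, with log2 ratios of 0.04 and -0.11.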

How the data were processed

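Total RNA of 2 libraries was sequenced paired-end, per the labels' protocols. The submitters' processing notes name Bowtie2 and mm9. The counting program, the annotation and strand handling were not given in the sources used here. The file headers name a read count and an RPKM for each gene. The deposited counts are the authors' estimated counts, written with 4 significant digits, 1 member having values that were not whole. The authors deposited RPKM values per the file headers, and also the ratio of RPKM to the library's root mean square RPKM. Library tables were joined by gene name. The merged table, in which values sit side by side by row and differ for 140 genes but for 0 members, served as an alternative (all 49 members were the same).

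CPM is the count over the library's sum of gene counts. Ratios used a pseudocount of 0.5 CPM, for genes reaching 1 RPKM in the higher library, and 237 genes with other coordinates in the tables (0 members) were left out. CPM was used in place of RPKM because its all-gene median lies near 0. Intervals are exact conditional (Clopper-Pearson) 95% intervals after rounding counts to whole numbers, and ratios of folds are conditional odds ratios (SciPy 1.17.1). Mates of a pair may have been counted singly, so intervals were also taken with counts halved. No p-value was computed, with 1 library per group. Only the fold calls and the counting intervals of single genes were run on simulated counts. The simulation held counting error alone, so it cannot speak to variation between libraries or to the other steps. Members, lists and motifs were chosen with earlier results of these data known. Members were named by this rule: all inducible genes and their constitutive counterparts, all activator, inhibitor, assembly and tissue-restricted genes, the 3 highest and 3 lowest of core and regulatory genes, and those past 1.5-fold. The remaining members are given to account for all. Of the partners, 0 passed 1.5-fold, and genes named from the partner and other lists were chosen after their values were seen. GC content is that of the longest coding transcript in GENCODE, matched by name. Some genes of the lists are not reported here by name.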

Additional observations from a re-analysis of the deposited data

How the results depend on the processing

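With 1 library per group no replicate could be left out, and no paired analysis was possible because each group holds 1 library. The difference of the core and regulatory medians (0.29) moved by no more than 0.1 under all 11 alternatives. Those that only rescale a library could hardly change it. The difference was 0.245 with a limit of 5 RPKM and 0.252 with centring by GC bin. On uncentred RPKM (all-gene median -0.18), and in the merged table, the medians were -0.15 for all members, 0.017 for core, -0.27 for regulatory, -0.46 for base ATPase, 0.28 for immunoproteasome and 0.22 for activator genes. There 3 members were at least 25% higher, 14 at least 20% lower and 0 at least 2-fold higher. On RMS-normalized RPKM, where the all-gene median was -0.43, these medians were -0.38, -0.22, -0.51, -0.70, 0.082 and -0.014, with 1 member at least 25% higher and 25 at least 20% lower. The share of all genes past these limits was computed only for the main CPM setting. The counts of members under any alternative therefore have no background beside them. Centred RPKM left 3 members at least 20% lower. With a limit of 5 RPKM 3 members were at least 25% higher and 0 at least 2-fold higher, since Psmb8, Psmb9 and Psmb10 are then left out. With a pseudocount of 2 CPM 0 were at least 2-fold higher, Psmb8 being at 0.89. The summed fold was 0.944 for core genes on RPKM, the reverse direction, 0.802 for regulatory and 0.891 for constitutive catalytic genes. Centring by GC bin, added after seeing the data, gave an immunoproteasome median of 0.578 and 2 members at least 20% lower. Few counts limit Psmb8, Psmb9 and Psma8.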
